A study of Mus musculus with 6 samples.

Results

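Genes of TGF-beta, activin and BMP signalling were followed in islets after a pulse of the endoderm transcription factor SOX17. The set held 58 of the 19937 genes on the arrays. A gene belonged to it by its symbol. The symbols covered the TGF-beta, BMP, GDF, activin and inhibin genes, their receptors, 7 SMAD genes, and follistatin and its relatives. They also covered noggin, chordin, gremlin 1, BAMBI, the ID genes and the transmembrane proteins TMEFF1 and TMEFF2. By symbol 61 genes were sought, and Gdf1, Gdf15 and Tgfbr3l were not analysed here. Each gene was read by its brightest probe set that carries a single symbol, and no member had a further such probe set. The 3 Sox17-GOF samples came from mice with Ins2-rtTA and tetO-Sox17, in which the insulin promoter drives a doxycycline-dependent activator that switches on Sox17 in insulin-producing cells. The 3 control samples came from mice whose genotype the labels give as Ins2-rtTA, that is, the activator without the inducible Sox17. For protein staining after the same length of doxycycline, the study instead names tetO-Sox17 mice as control, which carry the transgene without the activator, and the labels were followed here. All mice were 16 weeks old, on a background backcrossed to C57BL/6, and all had received doxycycline for 24 hours in food and water. By the methods, the mice of the Ins2-rtTA experiments were adult males. Islets were isolated with collagenase and a Ficoll gradient, and total RNA of whole islets was amplified and hybridized to Affymetrix Mouse Gene ST arrays, with 1 array for each of what the methods call biological triplicates. By the labels, both groups had the activator and the drug, and Sox17-GOF mice alone the inducible transgene.

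Ligands of the TGF-beta family are secreted dimers that bring together type II and type I receptor kinases at the cell surface. The type I receptor then phosphorylates receptor-regulated SMADs, which join SMAD4 and enter the nucleus. Among the SMADs of this set, TGF-beta and activin signal through SMAD2, and BMPs mainly through SMAD1, SMAD5 and SMAD9. SMAD6, SMAD7 and BAMBI dampen the response inside the cell or at the membrane, and follistatin, noggin, chordin and gremlin bind ligands outside it. The ID genes are classical BMP targets. In the pancreas these signals take part in endocrine differentiation and in β cell function.

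Sox17 itself had log2 levels of 6.35, 6.22 and 6.36 on the Sox17-GOF arrays, against 5.50, 5.72 and 5.71 on the control arrays. The groups did not overlap, and the difference was 0.67 on the log2 scale with a standard error (SE) of 0.09 (limma, adjusted p = 0.00876). The array medians were 6.31 to 6.41 in Sox17-GOF and 6.35 to 6.38 in control islets. The β cell marker Ins2 lay between 13.02 and 13.12 in Sox17-GOF and between 13.03 and 13.12 in control islets. Of 9 β cell markers 4 were lower (G6pc2, Pdx1, Slc2a2 and Ucn3), while 2.44% of all genes were called lower. The summed log2 level of the list was 92.4 to 93.9 in Sox17-GOF and 97.0 to 97.3 in control islets. The acinar list was bright as well, with a mean log2 level over 6 measured markers of 11.30 to 12.30 in Sox17-GOF and 11.84 to 12.10 in control islets, and none of these markers passed the test. What these cell types contribute to the members' differences was not tested. The arrays read RNA of whole islets, so fewer cells of a type and less RNA per cell cannot be told apart.

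Of the 58 members, 4 were higher in Sox17-GOF islets (Tmeff2, Fstl5, Inhba and Bmpr2), 1 was lower (Bmp1) and 53 did not pass an adjusted p of 0.05. The higher members made up 6.9% of the set, against 2.77% of all genes called higher. The single lower member made up 1.72%, against 2.44% of all genes called lower. In either direction 8.62% of the members and 5.21% of all genes were called. Members, Tmeff2 among them, were chosen with earlier results of these data known. Shares of the set beside those of all genes are therefore descriptions and not tests. The median log2 fold change was 0.03 over the members and -0.01 over all genes, and 49 members differed by less than 0.3 on the log2 scale. The groups did not overlap for 17 members, which is 29.3% of the set, while they did not overlap for 25.5% of all genes. Apart from Tmeff2 and Fstl5, the members had log2 fold changes between -0.50 and 0.66.

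**Figure D1:**
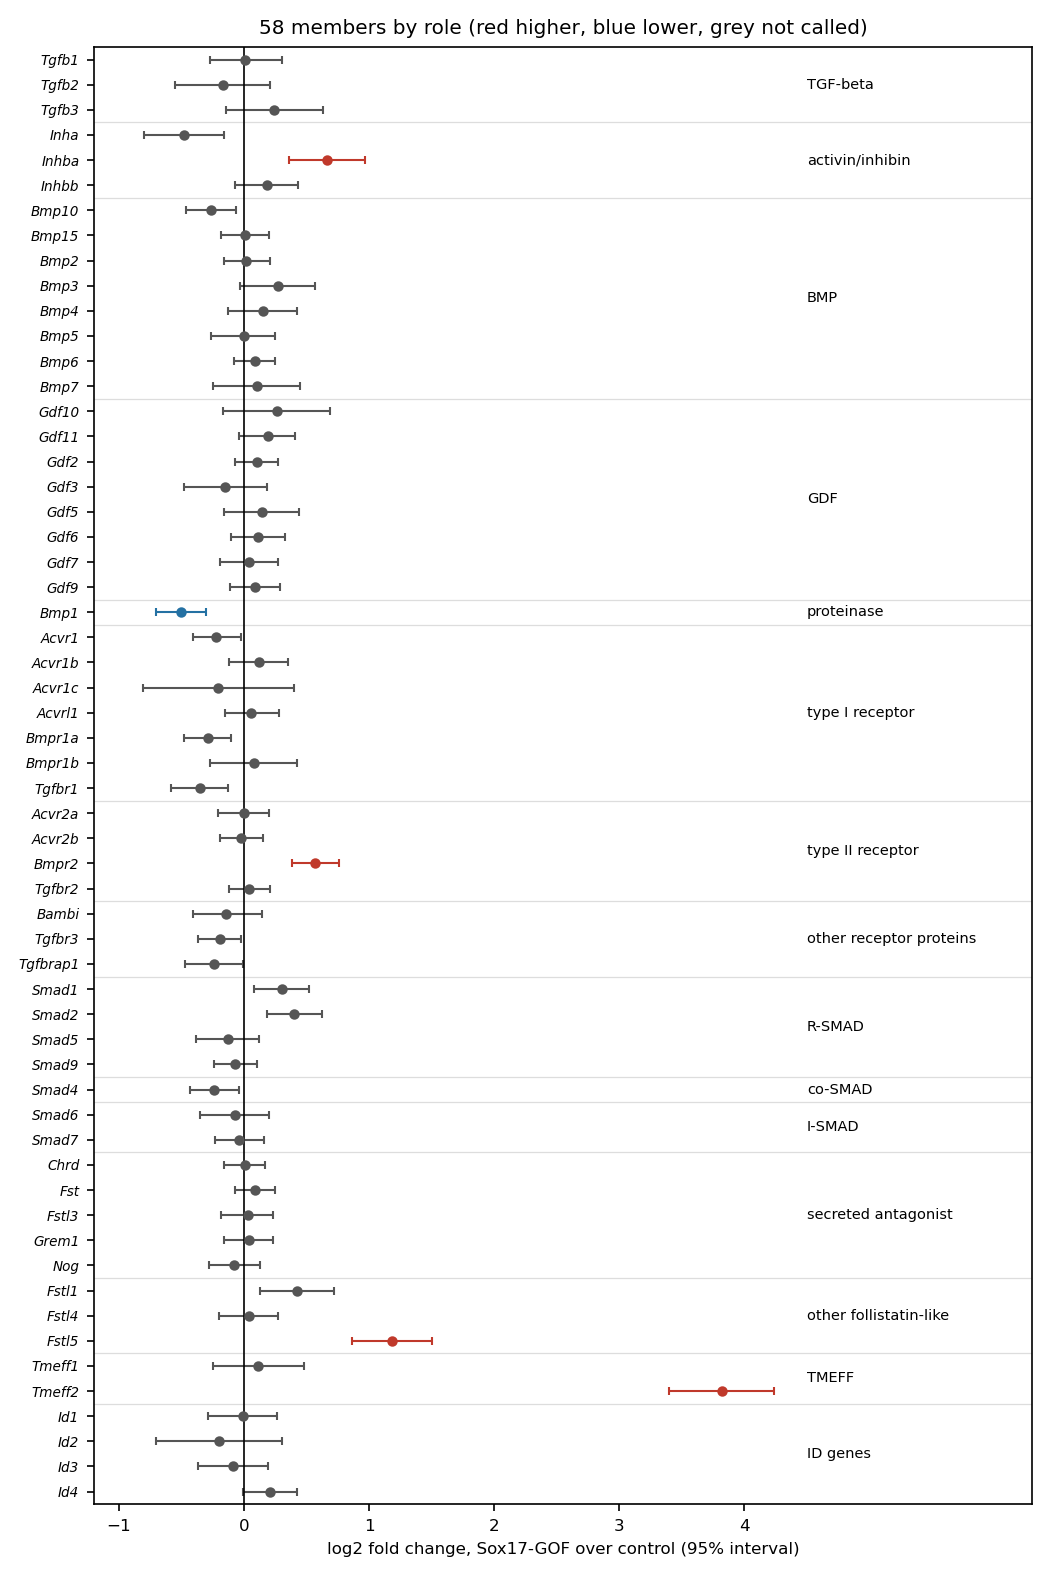
Log2 fold change of each of the 58 members in Sox17-GOF over control islets (points; 3 arrays each), with the 95% interval from limma (bars), grouped by role. Tmeff2 at 3.82 and Fstl5 at 1.18 stand to the right of all other members, Inhba and Bmpr2 are the other red points, and Bmp1 is the only blue one.

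The windows before the start sites of the 4 members called higher are shown to compare what precedes these genes, since the members share a direction. RefSeq (GRCm38.p6) held promoter entries for 40 of the 58 members. Each line gives the 250 bases before the start, 5′ to 3′ on the strand of the gene, all of them on the + strand. The windows are chr1:50927273-50927522 for Tmeff2, chr3:76074311-76074560 for the first of 2 starts of Fstl5, chr13:16011601-16011850 for Inhba and chr1:59764029-59764278 for Bmpr2. Capitals mark matches, on either strand, to any of 5 motifs. These are AACAAT, which SOX factors bind, ACAAAG, which SOX and TCF factors bind, and CAGACA, which holds a SMAD box. The others are GGCGCC, a GC-rich SMAD element, and CCAAT, the CCAAT box.
Tmeff2: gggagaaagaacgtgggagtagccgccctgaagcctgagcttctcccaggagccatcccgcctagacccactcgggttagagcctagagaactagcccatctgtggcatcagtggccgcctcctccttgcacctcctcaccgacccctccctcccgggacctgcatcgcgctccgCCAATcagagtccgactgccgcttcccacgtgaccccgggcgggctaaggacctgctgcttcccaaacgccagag
Fstl5: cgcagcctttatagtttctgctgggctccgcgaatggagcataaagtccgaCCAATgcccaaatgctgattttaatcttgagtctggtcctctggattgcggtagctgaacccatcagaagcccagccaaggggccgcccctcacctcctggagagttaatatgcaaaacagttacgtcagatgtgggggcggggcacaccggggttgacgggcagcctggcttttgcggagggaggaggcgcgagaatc
Inhba: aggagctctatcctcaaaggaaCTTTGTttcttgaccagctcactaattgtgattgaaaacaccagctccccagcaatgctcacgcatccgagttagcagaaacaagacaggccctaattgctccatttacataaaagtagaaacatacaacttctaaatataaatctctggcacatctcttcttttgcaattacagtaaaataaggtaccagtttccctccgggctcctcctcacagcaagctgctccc
Bmpr2: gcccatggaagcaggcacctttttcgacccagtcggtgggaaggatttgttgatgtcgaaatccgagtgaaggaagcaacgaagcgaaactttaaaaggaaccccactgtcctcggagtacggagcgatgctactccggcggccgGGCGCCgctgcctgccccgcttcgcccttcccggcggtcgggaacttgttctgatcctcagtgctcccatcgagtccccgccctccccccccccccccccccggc
The Tmeff2 window has 1 match, a CCAAT box 75 bases before the start. The Fstl5 window also has 1, a CCAAT box 199 bases before the start. The Inhba window holds CTTTGT, the reverse complement of ACAAAG, 228 bases before the start, and the Bmpr2 window holds GGCGCC 105 bases before the start. No motif is thus shared by all 4 windows, and AACAAT is in none of them. The window before the other start of Fstl5, not printed, holds TGTCTG, the reverse complement of CAGACA, 181 bases before that start. Among all 32851 windows of the same length, 9.42% held AACAAT, 16.5% ACAAAG, 17.1% CAGACA, 9.59% GGCGCC and 33.8% CCAAT. The 40 members with entries had 48 windows, so some members count more than once. Of these windows 12.5% held AACAAT (6 windows), 29.2% ACAAAG (14), 14.6% CAGACA (7), 22.9% GGCGCC (11) and 35.4% CCAAT (17). The shares of members and of all windows were not tested against each other. A match is a description of the letters, and no binding was measured here.

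Tmeff2 showed the largest change of the set. It encodes a transmembrane protein whose outer part carries follistatin domains and an EGF-like domain. Its log2 signals were 9.94, 9.78 and 9.65 on the Sox17-GOF arrays, against 5.99, 6.33 and 5.59 on the control arrays. Every Sox17-GOF array thus stood more than 3 units above every control array, and the control arrays spread more among themselves (SD 0.37, n = 3) than the Sox17-GOF arrays (SD 0.144, n = 3). The difference was 3.82 on the log2 scale, or 14.1-fold (SE 0.18, 95% interval from 3.40 to 4.24, limma, adjusted p = 0.000125). By size of the increase Tmeff2 ranked 4 among the 19937 genes. The exact two-sided permutation test over the 6 arrays gave p = 0.10, the smallest p that 3 arrays against 3 allow. The call held in each of the 6 sets of 5 arrays, with a log2 fold change of 3.63 to 4.0.

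Tmeff1, the gene of the closest relative of TMEFF2, did not follow it. Its log2 signals were 7.01, 7.01 and 7.27 in Sox17-GOF islets, against 6.80, 6.82 and 7.34 in control islets. The groups overlapped, since control replicate 3 was the highest of the 6 arrays, and the interval of the difference ran from -0.25 to 0.48 (limma, adjusted p = 0.768).

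Fstl5, which encodes a secreted glycoprotein of the follistatin-like group, was the second member by size. It was measured at 6.88, 6.67 and 6.33 in Sox17-GOF islets, against 5.51, 5.35 and 5.47 in control islets on the log2 scale. The lowest Sox17-GOF array lay above the highest control array. The increase was 1.18 on the log2 scale, or 2.27-fold (SE 0.14, limma, adjusted p = 0.00472), and it passed the test in all 6 sets of 5 arrays. The other follistatin-like genes that are not established ligand traps were Fstl1, a secreted glycoprotein of mesenchymal cells, and Fstl4. Fstl1 had log2 levels of 6.37, 6.71 and 6.75 in Sox17-GOF islets, against 6.33, 6.18 and 6.04 in control islets. The groups did not overlap, but the difference of 0.42 did not pass (95% interval from 0.13 to 0.72, adjusted p = 0.115). It passed in 1 of the 6 sets of 5 arrays, without Sox17-GOF replicate 1 (0.54, limma, adjusted p = 0.0476). In the other sets the adjusted p was 0.159 to 0.279. For Fstl4 the groups overlapped and the difference was 0.04 (adjusted p = 0.887).

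Fstl1 is a gene of mesenchymal cells, and the markers of stellate cells and fibroblasts were therefore set beside it. None of the 9 measured markers passed the test, and their median log2 fold change was 0.31. Their summed log2 level was 58.6 to 64.1 in Sox17-GOF and 55.8 to 59.7 in control islets. The largest difference of that list belonged to the matrix proteoglycan gene Lum, which had log2 levels of 4.54, 5.58 and 6.06 in Sox17-GOF islets, against 4.15, 4.42 and 4.09 in control islets (adjusted p = 0.106). Sox17-GOF replicate 1 was the lowest of its group for both Fstl1 and Lum. This order was not particular to mesenchymal genes. The acinar marker Cpa1 had log2 levels of 12.01, 12.82 and 13.15 on Sox17-GOF arrays 1 to 3, and Cela1 had 11.93, 12.92 and 13.35. The duct marker Krt7 did not have this order, at 10.26, 10.36 and 10.08. The part of stellate cells and fibroblasts in the level of Fstl1 was not tested. Log2 array signals have no zero, so none of the markers can be called absent.

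**Figure D2:**
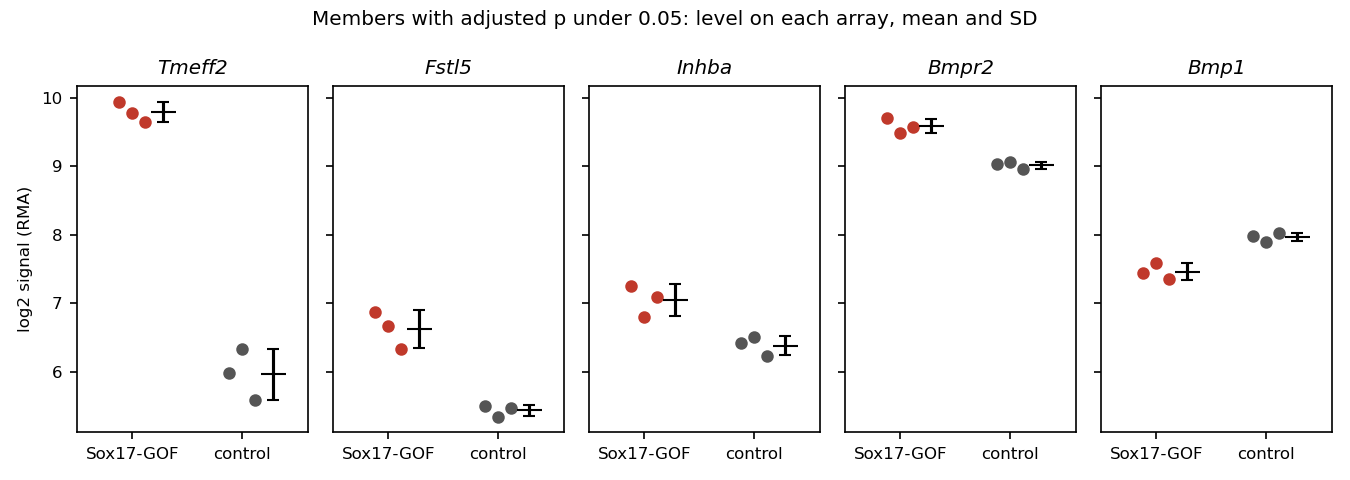
Log2 signal of the 5 members with an adjusted p under 0.05 on each array (points; 3 Sox17-GOF arrays in red, left, and 3 control arrays in grey, right), where lines give group means and bars the SD. The groups do not overlap in any of the 5 panels, and the gap is widest for Tmeff2, with means of 9.79 in Sox17-GOF and 5.97 in control islets.

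Among the ligand genes 1 of 22 passed the test, which is 4.55%, against 5.21% of all genes. Inhba encodes the βA subunit, which forms activin A as a homodimer and inhibin A together with the product of Inha. It had log2 levels of 7.25, 6.80 and 7.10 in Sox17-GOF islets, against 6.42, 6.51 and 6.23 in control islets. The groups did not overlap, and Sox17-GOF replicate 2 was the nearest to the control arrays. The increase was 0.66 on the log2 scale, or 1.58-fold (SE 0.13, limma, adjusted p = 0.0319). This call was lost without control replicate 1, 2 or 3 (adjusted p = 0.101, 0.0808 and 0.102) and without Sox17-GOF replicate 1 or 3 (0.0691 and 0.0736), while the log2 fold change stayed between 0.56 and 0.79. Testing all probe sets, also those without a symbol, gave an adjusted p = 0.0806.

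The inhibin α subunit gene lay the other way. Inha was measured at 7.45, 7.95 and 7.49 in Sox17-GOF islets, against 8.03, 8.12 and 8.18 in control islets on the log2 scale. Every Sox17-GOF array was below every control array, with replicate 2 again the nearest to the control arrays. The difference of -0.48 did not pass (95% interval from -0.80 to -0.16, limma, adjusted p = 0.103). Without Sox17-GOF replicate 2 it was -0.64 with an adjusted p = 0.0213. Inhbb, the gene of the βB subunit, had log2 levels of 6.93, 7.16 and 7.08 in Sox17-GOF islets, against 6.73, 6.83 and 7.05 in control islets, and the groups overlapped (adjusted p = 0.423).

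The 3 TGF-beta genes did not pass. Tgfb1 differed by 0.01 (95% interval from -0.27 to 0.30), Tgfb2 by -0.17 (from -0.55 to 0.21) and Tgfb3 by 0.24 (from -0.14 to 0.63) on the log2 scale. Tgfb2 was even among Sox17-GOF arrays, at 6.33, 6.33 and 6.4, and uneven among control arrays, at 6.88, 6.53 and 6.17. The control arrays therefore lay on both sides of the Sox17-GOF arrays for this gene.

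None of the 8 BMP ligand genes passed, with log2 fold changes between -0.26 and 0.27. Bmp10, the ligand best known from the heart, had the only separated groups of these genes. It was measured at 4.34, 4.37 and 4.39 in Sox17-GOF islets, against 4.54, 4.77 and 4.57 in control islets (difference -0.26, limma, adjusted p = 0.152). These levels lie around 4.63, the 20th percentile of all values. Bmp7 was spread among Sox17-GOF arrays, at 6.13, 6.77 and 6.44, against 6.35, 6.31 and 6.38 in control islets. Sox17-GOF replicate 1 was below and replicates 2 and 3 were above the control arrays.

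The 8 measured GDF genes did not pass either, with log2 fold changes between -0.15 and 0.26 and adjusted p of at least 0.361. Gdf10, a BMP3-like ligand gene, had log2 levels of 6.20, 6.63 and 7.01 in Sox17-GOF islets, against 6.36, 6.28 and 6.41 in control islets. Sox17-GOF replicate 1 was below all control arrays and replicates 2 and 3 were above them, so the group mean describes no single Sox17-GOF array well. Gdf11, whose product resembles myostatin, differed by 0.19 (95% interval from -0.04 to 0.41). Gdf2, the gene of the circulating BMP9, differed by 0.10 with groups that did not overlap (adjusted p = 0.532).

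Bmp1 was the member called lower. Despite its name it encodes a metalloproteinase that trims procollagens and cleaves the BMP antagonist chordin, and not a ligand. Its log2 signals were 7.45, 7.59 and 7.35 in Sox17-GOF islets, against 7.98, 7.90 and 8.02 in control islets. No Sox17-GOF array reached the lowest control array. Bmp1 fell by 0.50 on the log2 scale, 1.42-fold (SE 0.09, limma, adjusted p = 0.0206). The call was lost without control replicate 1, 2 or 3 (adjusted p = 0.0811, 0.0677 and 0.0759), without Sox17-GOF replicate 1 (0.053) and with all probe sets tested (0.0553).

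Among the 11 receptor kinases, Bmpr2 alone passed the test, which is 9.09% of them, against 5.21% of all genes. BMPR2 is the type II receptor used mainly by BMPs. Its log2 signals were 9.70, 9.49 and 9.57 in Sox17-GOF islets, against 9.03, 9.06 and 8.96 in control islets. The arrays of each group lay close together and the groups were well apart. The increase was 0.57 on the log2 scale, or 1.48-fold (SE 0.08, limma, adjusted p = 0.0111), and it passed in every set of 5 arrays, with an adjusted p of at most 0.0492. The other type II receptor genes stayed near 0. Acvr2a had an interval from -0.21 to 0.20, Acvr2b from -0.19 to 0.15 and Tgfbr2 from -0.12 to 0.21 on the log2 scale.

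None of the 7 type I receptor genes passed. In either direction, the groups did not overlap for 3 of them (42.9%) and for 25.5% of all genes. For these 3 every Sox17-GOF array was below every control array. The share of all genes in that direction alone was not counted. Tgfbr1, the gene of the TGF-beta type I receptor ALK5, had log2 levels of 8.46, 8.14 and 8.30 in Sox17-GOF islets, against 8.68, 8.63 and 8.65 in control islets. The control arrays were nearly equal, and the difference was -0.35 (95% interval from -0.58 to -0.13, limma, adjusted p = 0.0875). Bmpr1a, the BMP receptor ALK3, which in mouse β cells is known to support insulin secretion, was measured at 8.49, 8.45 and 8.41 in Sox17-GOF islets, against 8.71, 8.85 and 8.65 in control islets. Its difference was -0.29 (95% interval from -0.48 to -0.10, adjusted p = 0.0986). Acvr1, which encodes ALK2, differed by -0.22 (95% interval from -0.41 to -0.02, adjusted p = 0.216).

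The remaining type I receptor genes overlapped between the groups. Acvr1c encodes ALK7, a receptor of activins and related ligands that is known from islets and fat. It had log2 levels of 7.31, 6.38 and 7.46 in Sox17-GOF islets, against 7.13, 7.22 and 7.41 in control islets. Sox17-GOF replicate 2 alone was low, which gave the widest range of any member within Sox17-GOF arrays, 1.08, where the median range over the members was 0.23. Without that array the difference was 0.13, against -0.21 with it. Acvrl1, the endothelial receptor ALK1, differed by 0.06 (95% interval from -0.15 to 0.28). Of 9 endothelial markers 1 was lower, the VEGF receptor gene Kdr (log2 fold change -0.68, limma, adjusted p = 0.016), and 0 were called higher. Emcn (-0.5, adjusted p = 0.0622) and Flt1 (-0.43, adjusted p = 0.0846) did not pass, with every Sox17-GOF array below every control array. For Pecam1 and Eng every Sox17-GOF array was above every control array. The log2 fold changes of the list ran up to 0.37, for Pecam1, with a median of 0.07. Its summed log2 level was 71.9 to 73.0 in Sox17-GOF and 72.5 to 73.3 in control islets.

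The other receptor proteins were Tgfbr3, the co-receptor betaglycan, Tgfbrap1, a protein associated with the receptors, and the pseudoreceptor gene Bambi. Tgfbr3 had log2 levels of 7.47, 7.38 and 7.40 in Sox17-GOF islets, against 7.54, 7.66 and 7.62 in control islets. The groups were apart by a narrow margin, and the difference of -0.19 did not pass (limma, adjusted p = 0.211). Tgfbrap1 differed by -0.24 (adjusted p = 0.24) and Bambi by -0.14 (adjusted p = 0.599), with overlapping groups for both.

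**Figure D3:**
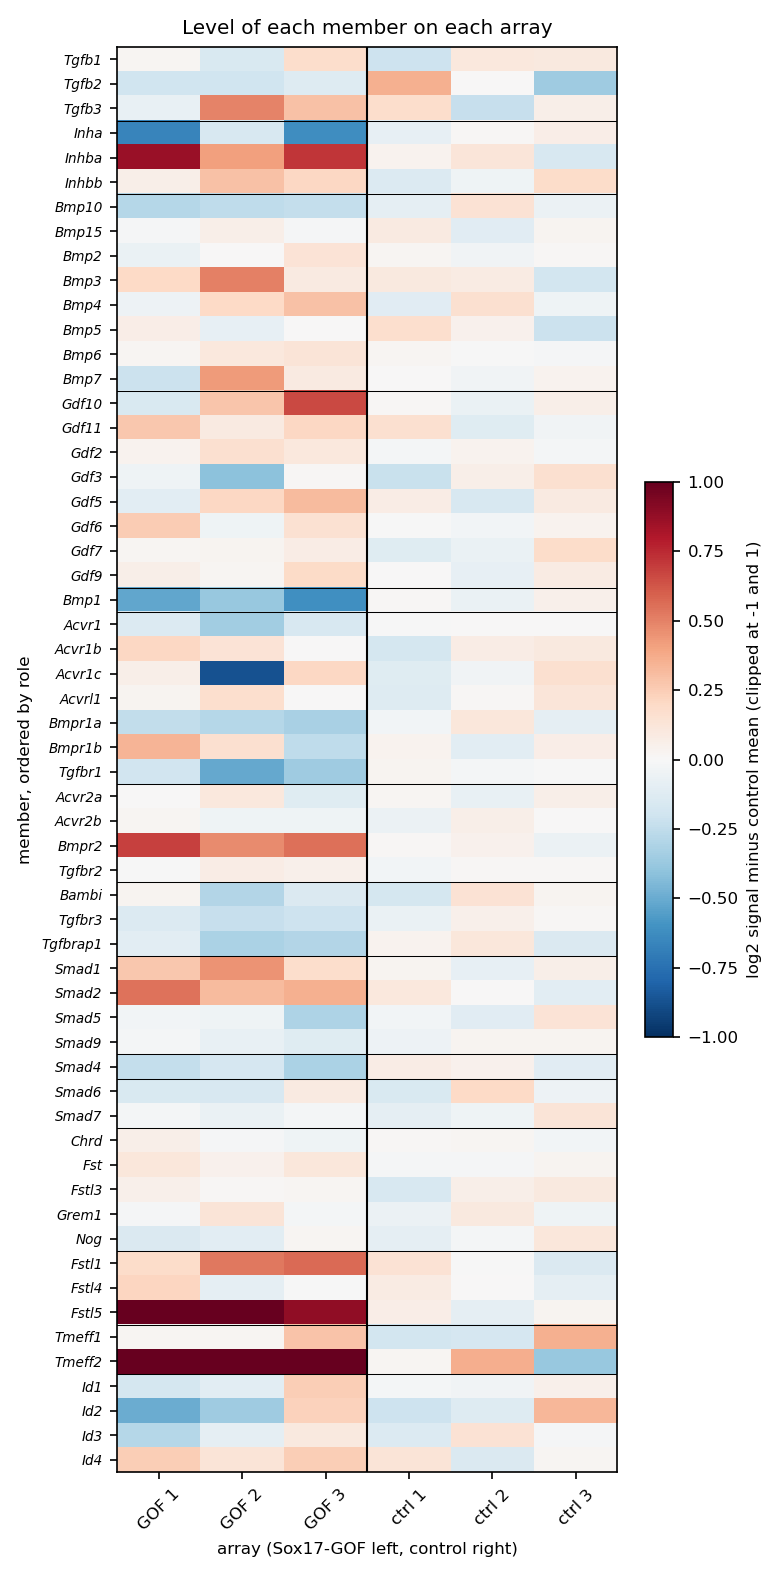
Log2 signal of each of the 58 members (rows, by role) on each array (columns; Sox17-GOF left, control right) minus the mean of the control arrays, with colours clipped at -1 and 1 on the log2 scale. The rows of Tmeff2 and Fstl5 are dark red on all Sox17-GOF arrays, and that of Bmp1 is blue there. The row of Inha is blue on Sox17-GOF replicates 1 and 3 and paler on replicate 2. Acvr1c is dark blue on Sox17-GOF replicate 2 alone.

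None of the 7 SMAD genes of the set passed. Smad2, whose product carries TGF-beta and activin signals, came nearest, with log2 levels of 9.70, 9.47 and 9.51 in Sox17-GOF islets, against 9.26, 9.16 and 9.05 in control islets. The groups did not overlap, and the difference was 0.40 (95% interval from 0.18 to 0.62, limma, adjusted p = 0.059). Smad2 passed after quantile normalization of the deposited values (0.45, adjusted p = 0.0299). It also passed with the mean of each gene's probe sets (adjusted p = 0.0491), where its own difference stayed at 0.40. It did not pass with an intensity trend (0.0581), without dim probe sets (0.0566) or with a replicate block (0.0701). Nor did it pass after centring on array medians (0.094) or with all probe sets tested (0.119). The methods' t-test after Benjamini-Hochberg gave an adjusted p = 0.182. With each array left out in turn, the adjusted p from limma was 0.0887 to 0.171. Smad1, of the BMP branch, was measured at 7.70, 7.88 and 7.61 in Sox17-GOF islets, against 7.46, 7.35 and 7.49 in control islets (difference 0.30, adjusted p = 0.133). Here too the Sox17-GOF arrays were all above the control arrays.

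Smad4, the common partner of the receptor-regulated SMADs, lay on the other side. It had log2 levels of 9.15, 9.22 and 9.07 in Sox17-GOF islets, against 9.46, 9.43 and 9.27 in control islets, and the difference of -0.24 did not pass (95% interval from -0.43 to -0.04, limma, adjusted p = 0.179). The groups did not overlap, though the margin between them was narrow. Smad5 and Smad9, also of the BMP branch, differed by -0.13 and -0.07 and overlapped. The inhibitory SMADs, which are themselves induced by the pathway, showed intervals from -0.35 to 0.20 for Smad6 and from -0.23 to 0.16 for Smad7 on the log2 scale.

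The secreted antagonists differed little. None of the 5 genes passed, and their log2 fold changes lay between -0.08 and 0.09. Fst, the gene of follistatin, which binds activins tightly, was measured at 6.22, 6.15 and 6.22 in Sox17-GOF islets, against 6.09, 6.09 and 6.13 in control islets. The groups were just apart, with a difference of 0.09 (95% interval from -0.07 to 0.25, limma, adjusted p = 0.547). For the BMP antagonists the intervals ran from -0.28 to 0.13 for Nog, from -0.16 to 0.17 for Chrd and from -0.16 to 0.23 for Grem1. Fstl3, another activin antagonist, had an interval from -0.18 to 0.23. Mean log2 levels over the 6 arrays were 5.6 for Nog, 5.85 for Grem1, 6.15 for Fst, 6.45 for Chrd and 7.28 for Fstl3. The array medians were 6.31 to 6.41. Whether the genes near or below these medians are expressed in the islets was not tested.

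The ID genes encode helix-loop-helix proteins that block differentiation factors, and none of the 4 passed. Id1 had log2 levels of 6.74, 6.81 and 7.16 in Sox17-GOF islets, against 6.90, 6.88 and 6.97 in control islets. Id2 was measured at 7.59, 7.73 and 8.32 in Sox17-GOF islets, against 7.88, 7.96 and 8.42 in control islets. Id3 was measured at 6.69, 6.88 and 7.07 in Sox17-GOF islets, against 6.84, 7.12 and 6.96 in control islets. The groups overlapped for all 4 genes, and for Id1, Id2 and Id3 Sox17-GOF replicate 3 was the highest of its group. The intervals of the difference were from -0.29 to 0.26 for Id1, from -0.70 to 0.30 for Id2, from -0.37 to 0.19 for Id3 and from -0.01 to 0.42 for Id4 on the log2 scale, so differences of some size remain compatible with these 6 arrays.

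Without adjustment, 16 members had a p under 0.05, 7 with a positive and 9 with a negative difference. They made up 27.6% of the set, against 19.7% of all genes. Of these members 5 were called, and 11 did not pass after adjustment. The positive ones among the 11 were Smad2, Fstl1 and Smad1. The negative ones were Inha, Tgfbr1, Bmpr1a, Bmp10, Smad4, Acvr1, Tgfbr3 and Tgfbrap1.

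Outside the set, 77 of 84 further genes of the pathway were measured, and 1 was higher, 2 were lower and 74 did not pass. These calls made up 3.9% of the list, against 5.21% of all genes, and the median log2 fold change was 0.01. Itgb8 encodes an integrin subunit that helps release TGF-beta from its latent complex. It had log2 levels of 10.51, 10.30 and 9.69 in Sox17-GOF islets, against 9.16, 9.05 and 8.96 in control islets (log2 fold change 1.11, SE 0.19, limma, adjusted p = 0.0211). Sox17-GOF replicate 3 was the lowest of its group and still above all control arrays. The call was lost without control replicate 1, 2 or 3 (adjusted p = 0.0672, 0.0887 and 0.0759) or Sox17-GOF replicate 2 (0.0736).

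The lower genes were Twsg1, an extracellular BMP modulator that acts with chordin, and Nedd4l, a ubiquitin ligase that limits SMAD signalling. Twsg1 was measured at 9.62, 9.34 and 9.13 in Sox17-GOF islets, against 9.90, 10.06 and 9.98 in control islets (log2 fold change -0.62, SE 0.13, limma, adjusted p = 0.037). Nedd4l was measured at 8.29, 8.14 and 8.15 in Sox17-GOF islets, against 8.64, 8.53 and 8.61 in control islets (log2 fold change -0.40, SE 0.08, adjusted p = 0.0333). Neither gene overlapped between the groups. Both calls held only without Sox17-GOF replicate 1 among the 6 sets of 5 arrays, and in the other sets the adjusted p was 0.0593 to 0.141 for Twsg1 and 0.0759 to 0.121 for Nedd4l.

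None of the 11 measured further target genes of the pathway passed, with log2 fold changes between -0.09 and 0.45. The highest of these belonged to Klf10, an early TGF-beta response gene, with log2 levels of 7.16, 7.66 and 7.05 in Sox17-GOF islets, against 6.71, 7.0 and 6.80 in control islets (limma, adjusted p = 0.186). The SMAD regulators Skil and Pmepa1, which the pathway also induces, differed by 0.09 and -0.16 and overlapped between the groups. None of 9 other ligand genes, among them Nodal and Lefty1, and none of 8 other receptor and co-receptor genes passed.

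**Figure D4:**
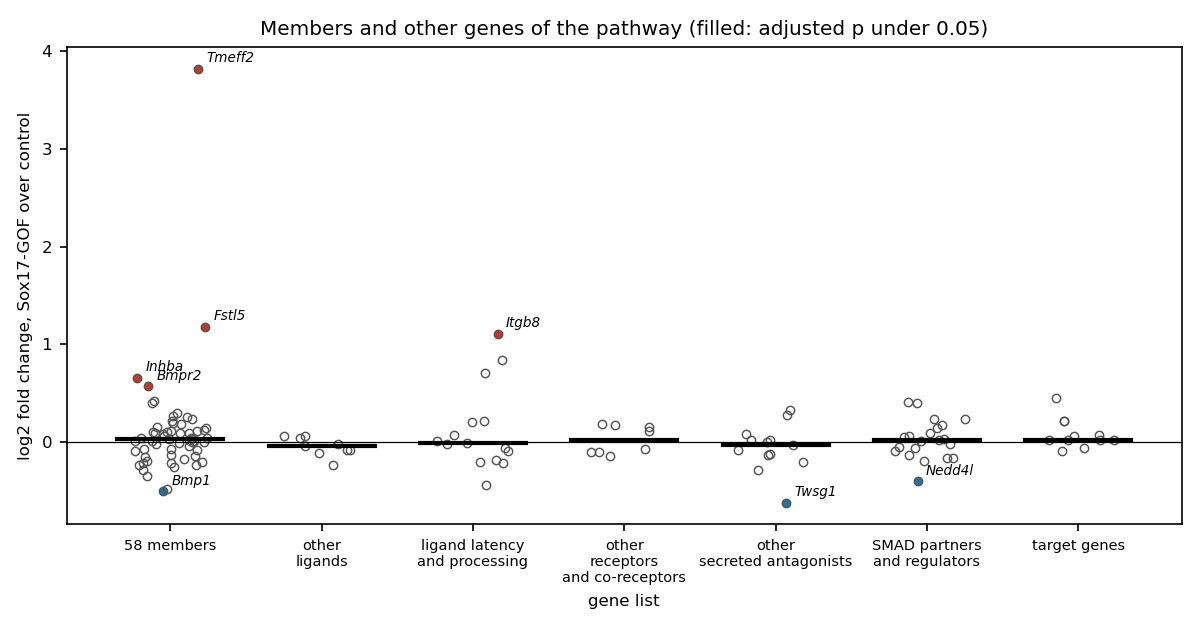
Log2 fold changes in Sox17-GOF over control islets (3 arrays each) of the 58 members and of 6 lists of other genes of the pathway. Each circle is a gene, filled where it passed limma at an adjusted p of 0.05, with the median of each list as a black bar. Besides the 5 members, only Itgb8, Twsg1 and Nedd4l are filled, and the medians lie between -0.04 and 0.03.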

How the data were processed

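Islet RNA of 3 Sox17-GOF and 3 control samples was hybridized to Affymetrix Mouse Gene ST arrays. The log2 values deposited by the authors came from RMA, a procedure of background correction, quantile normalization and median polish of the probes in each probe set. The methods name GeneSpring for it, while Affymetrix Expression Console is named in the submitters' processing notes. Quantile normalization would hide a shift of all genes, and the number of arrays limits the precision. The 22961 of 34760 probe sets that carry a symbol entered a two-sided comparison in limma 3.58.1 (R 4.3.3; functions lmFit and eBayes), with Benjamini-Hochberg adjustment across the full set and a threshold of 0.05. The 11799 probe sets without a symbol were not used in it. The procedure was tested on simulated arrays. By Entrez ID all 58 members kept their symbol in RefSeq. No filter on dim values was applied, and no member had both group means under 4.63, the 20th percentile. The rule for named genes took every called member, the up to 3 brightest and up to 3 most changed members of each role, Tmeff2 and Sox17, and called genes of the pathway lists. Other genes were named after their values were seen. The alternatives were an intensity trend, centring on array medians, renewed quantile normalization, testing all probe sets, leaving out dim probe sets, averaging probe sets by gene, the t-test of the methods, a block on the replicate number and leaving out each array. Members and lists were chosen with earlier results of these data known.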

Additional observations from a re-analysis of the deposited data

How the results depend on the processing

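With 3 arrays a group, calls near the threshold changed with single arrays. Tmeff2, Fstl5, Bmpr2 and Sox17 passed in all 6 sets of 5 arrays, and the causes of the changes given here were not tested. Over these sets the count of members called higher was 3 to 4 and lower 0 to 2, of other pathway genes higher 0 to 2 and lower 0 to 2, and of all genes 360 to 931, against 1039 with all arrays. Testing all probe sets called 457 genes, with 0 members lower, 0 other pathway genes higher and 0 lower. After quantile normalization 2 other pathway genes were higher, and after centring on array medians 0 were lower. The methods' t-test after Benjamini-Hochberg called 65 genes, with 1 member higher (Tmeff2), 0 members lower, 0 other pathway genes higher and 1 lower, and gave Sox17 a log2 fold change of 0.67 with an adjusted p = 0.0906. By unadjusted p and a fold of 1.3, it called 6 members higher, with Smad2 and Fstl1 besides the 4 called by limma, 2 members lower and 2 other pathway genes higher. Pairing of the arrays by replicate number was not visible. The correlations of deviations were 0.05, -0.02 and -0.04 for same-numbered arrays, and -0.05 to 0.06 for others. Whether the samples were handled in pairs cannot be settled from these correlations. With the replicate block 654 genes were called, with 3 members higher, 0 lower, 1 other pathway gene higher and 0 lower, and the adjusted p was 0.0732 for Inhba and 0.0676 for Bmp1.

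Of 58 members, 55 kept their direction under all 9 settings that use every array. The exceptions came with quantile normalization, at 0.04 for Acvr2a, 0.01 for Bmp5 and 0.00 for Id1. In every set of 5 arrays 38 kept it. The others, none of them called, had log2 fold changes over these sets of -0.41 to 0.13 for Acvr1c, -0.06 to 0.06 for Acvr2a, -0.05 to 0.01 for Acvr2b, 0.00 to 0.13 for Acvrl1, -0.05 to 0.05 for Bmp15, -0.03 to 0.07 for Bmp2, -0.11 to 0.08 for Bmp5, -0.06 to 0.26 for Bmp7, -0.05 to 0.24 for Bmpr1b, -0.02 to 0.03 for Chrd, -0.05 to 0.08 for Fstl3, -0.05 to 0.10 for Fstl4, -0.02 to 0.13 for Gdf7, -0.01 to 0.08 for Grem1, -0.14 to 0.07 for Id1, -0.19 to 0.00 for Id3, -0.16 to 0.02 for Smad6, -0.08 to 0.03 for Smad7, -0.09 to 0.10 for Tgfb1 and -0.35 to 0.01 for Tgfb2.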
